A study of Mus musculus with 6 samples.

Results

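Toll-like receptor, NF-kB and inflammasome genes were followed in mouse spinal cord, where 43 genes were taken by name from a table of 37475 genes. They were read in 6 classes, with 12 Toll-like receptors and co-receptors, 7 adaptors and receptor-proximal kinases, 5 NF-kB subunits, 3 genes of the IKK complex, 7 inhibitors and modulators of NF-kB and 9 inflammasome genes. RNA of spinal cord from wild-type mice was sequenced 3 days after a blunt impact at the T10 level of the cord. The SCI+Syr group, called syringin below, was given syringin, a plant phenylpropanoid glucoside, by daily intraperitoneal injection at 50 mg/kg, and the SCI group was given the vehicle PBS, phosphate-buffered saline. Each group held 3 biological replicates, all animals were injured, and no uninjured cord was analysed here. The comparison asked how these genes differed between the injured cords of the 2 treatments.

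Toll-like receptors recognise microbial products and molecules released from damaged cells, and in the cord they are best known from microglia and infiltrating macrophages, though astrocytes and neurons also use some of them. Most signal through the adaptor encoded by Myd88 and the IRAK kinases to the IKK complex, which marks the inhibitors of NF-kB for destruction so that the NF-kB dimers enter the nucleus. NF-kB then induces cytokine genes together with its own inhibitors, a feedback that limits the response. Inflammasomes are cytosolic complexes that form around a sensor and the adaptor encoded by Pycard and activate caspase-1, which cleaves interleukin precursors and the pore protein encoded by Gsdmd.

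Summed deposited counts ran between 65.6 and 78.8 per library, in units of 1e+06. A count of 4 was 1.51 times as frequent as the mean of counts 3 and 5, so a fragment may add several counts and the counting error may exceed what the sums imply. Members had between 66 and 9020 counts in a library, and all 43 passed the filter on low counts. Markers of spinal cord cells were present in every library, with summed levels of 18740 to 25580 CPM for 8 oligodendrocyte genes (CPM are counts per 1e+06 after TMM scaling). Transcripts of sensory ganglion neurons, cells outside the cord, were uneven, at 296, 28.1 and 140 CPM summed over 10 markers in syringin libraries 1, 2 and 3 and at 364, 54.9 and 59.0 CPM in the PBS libraries. In bulk tissue, fewer cells of a type and less RNA per cell cannot be told apart.

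Promoters are shown for Bcl3, Tnfaip3, Nfkbia and Nfkb2, because these genes are known targets of the factor whose activity they shape, and Bcl3 and Tnfaip3 were higher with syringin. The sequences below are the stretch from 250 bases before to 50 bases after an annotated start, from RefSeq on GRCm38.p6, with matches to the NF-kB consensus decamer in capitals.
Bcl3 (chr7:19822706-19823005, minus strand): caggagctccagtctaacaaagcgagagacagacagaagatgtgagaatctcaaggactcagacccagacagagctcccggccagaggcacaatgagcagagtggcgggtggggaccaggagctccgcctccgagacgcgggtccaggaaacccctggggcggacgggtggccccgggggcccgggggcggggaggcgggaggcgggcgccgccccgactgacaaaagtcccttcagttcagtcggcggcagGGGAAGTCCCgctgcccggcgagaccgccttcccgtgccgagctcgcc
Tnfaip3 (chr10:19015361-19015660, minus strand): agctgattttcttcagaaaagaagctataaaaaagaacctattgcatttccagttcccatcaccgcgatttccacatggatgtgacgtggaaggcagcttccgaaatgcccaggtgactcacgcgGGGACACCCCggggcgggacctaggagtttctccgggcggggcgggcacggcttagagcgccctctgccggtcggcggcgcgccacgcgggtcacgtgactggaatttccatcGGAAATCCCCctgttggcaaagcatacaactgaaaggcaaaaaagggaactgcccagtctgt
Nfkbia (chr12:55492598-55492897, minus strand): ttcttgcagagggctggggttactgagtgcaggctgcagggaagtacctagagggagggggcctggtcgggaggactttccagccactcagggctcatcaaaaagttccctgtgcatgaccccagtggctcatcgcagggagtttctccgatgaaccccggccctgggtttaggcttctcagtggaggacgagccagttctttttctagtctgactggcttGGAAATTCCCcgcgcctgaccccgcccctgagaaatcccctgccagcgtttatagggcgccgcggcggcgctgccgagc
Nfkb2 (chr19:46304487-46304786, plus strand): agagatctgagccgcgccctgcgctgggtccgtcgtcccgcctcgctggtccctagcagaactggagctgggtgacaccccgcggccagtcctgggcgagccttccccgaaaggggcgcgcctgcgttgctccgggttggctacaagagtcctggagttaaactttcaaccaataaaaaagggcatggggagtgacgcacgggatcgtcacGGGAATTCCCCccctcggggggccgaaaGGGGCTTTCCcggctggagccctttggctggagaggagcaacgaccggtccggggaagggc
The decamer was searched on both strands, and overlapping matches were joined. In Bcl3 the match GGGAAGTCCC began at base 3 after the start, in Nfkbia GGAAATTCCC began at -29, and Tnfaip3 held GGGACACCCC at -125 and GGAAATCCCC at -12. Another annotated promoter of Tnfaip3, not shown, held no match. Nfkb2 has several annotated starts, and the first held the joined match GGGAATTCCCC at -39 and GGGGCTTTCC at -11. RefSeq promoters were found for 34 of the 43 members, and 12 of these 34 (35.3%) held a match in at least 1 promoter, against 9.55% of 27025 genes. By class, a match was present in 5 of 6 inhibitors and modulators, 2 of 3 NF-kB subunits, 2 of 8 receptors, 2 of 8 inflammasome genes, 1 of 7 adaptors and kinases, and in neither of 2 IKK genes. Of the 4 members that rose in the comparison below, Bcl3 and Tnfaip3 held a match, and the promoters of Myd88 and Mefv held no match to the decamer in this window. These matches are a description of the sequence, not of binding.

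In syringin-treated cords Bcl3, Tnfaip3, Mefv and Myd88 rose relative to PBS-treated cords, no member fell, and 39 did not pass the threshold, which was 0.05 for p-values of edgeR's quasi-likelihood test adjusted by Benjamini and Hochberg's method over all 22114 genes tested. The 4 called members are 9.3% of the 43, against 5.01% of all genes called in either direction, 1.62% called higher and 3.39% called lower. These are Bcl3 (ENSMUSG00000053175, chromosome 7), Tnfaip3 (ENSMUSG00000019850, chromosome 10), Mefv (ENSMUSG00000022534, chromosome 16) and Myd88 (ENSMUSG00000032508, chromosome 9). The log2 fold change, syringin over PBS, was positive for 41 members (95.3%) and for 50.9% of all genes, and its median was 0.40 over the members and 0.01 over all genes tested. In 21 members (48.8%) every syringin library lay above every PBS library, against 14.7% of all genes, and in 1 member, Tlr3, every syringin library lay below, against 15.3% of all genes. An unadjusted p under 0.05 was reached by 22 members (51.2%), against 23.6% of all genes.

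None of these calls held throughout when each library was left out in turn. Without syringin library 1, 2 or 3, edgeR called 9, 1 and 0 members, where it called 8.55%, 1.9% and 1.1% of all genes, and without syringin library 3 an unadjusted p under 0.05 was found for 18 members (41.9%) and 20.5% of all genes. Without PBS library 1, 2 or 3 it called 0 members each time, where it called 1.16%, 0.806% and 0.0% of all genes, and an unadjusted p under 0.05 was then found for 14, 10 and 8 members (32.6%, 23.3% and 18.6%) and for 19%, 18.6% and 15.1% of all genes. Without PBS library 3 DESeq2 called 5 members (Bcl3, Tnfaip3, Mefv, Nfkb2 and Cd14) and 6.43% of all genes. With all 6 libraries DESeq2 called 10 members and 14.4% of all genes, and a fit with the sensory ganglion markers as a covariate called 7 members and 11.7%. Limma on log2(FPKM + 0.1) or log2(FPKM + 1) called 1 member, Bcl3, and 3.09% or 3.08% of all genes. The other edgeR fits called 4 members and 5.02% of genes with RLE factors, 3 and 4.53% with library totals only, 4 and 3.24% without the filter, 5 and 7.34% with counts divided by 4, 4 and 4.7% with a transcript length correction, and 6 and 11.6% with the replicate number as a block. The number of members with a positive fold change was 37 without syringin library 2 and 40 or 41 without any other single library.

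**Figure D1:**
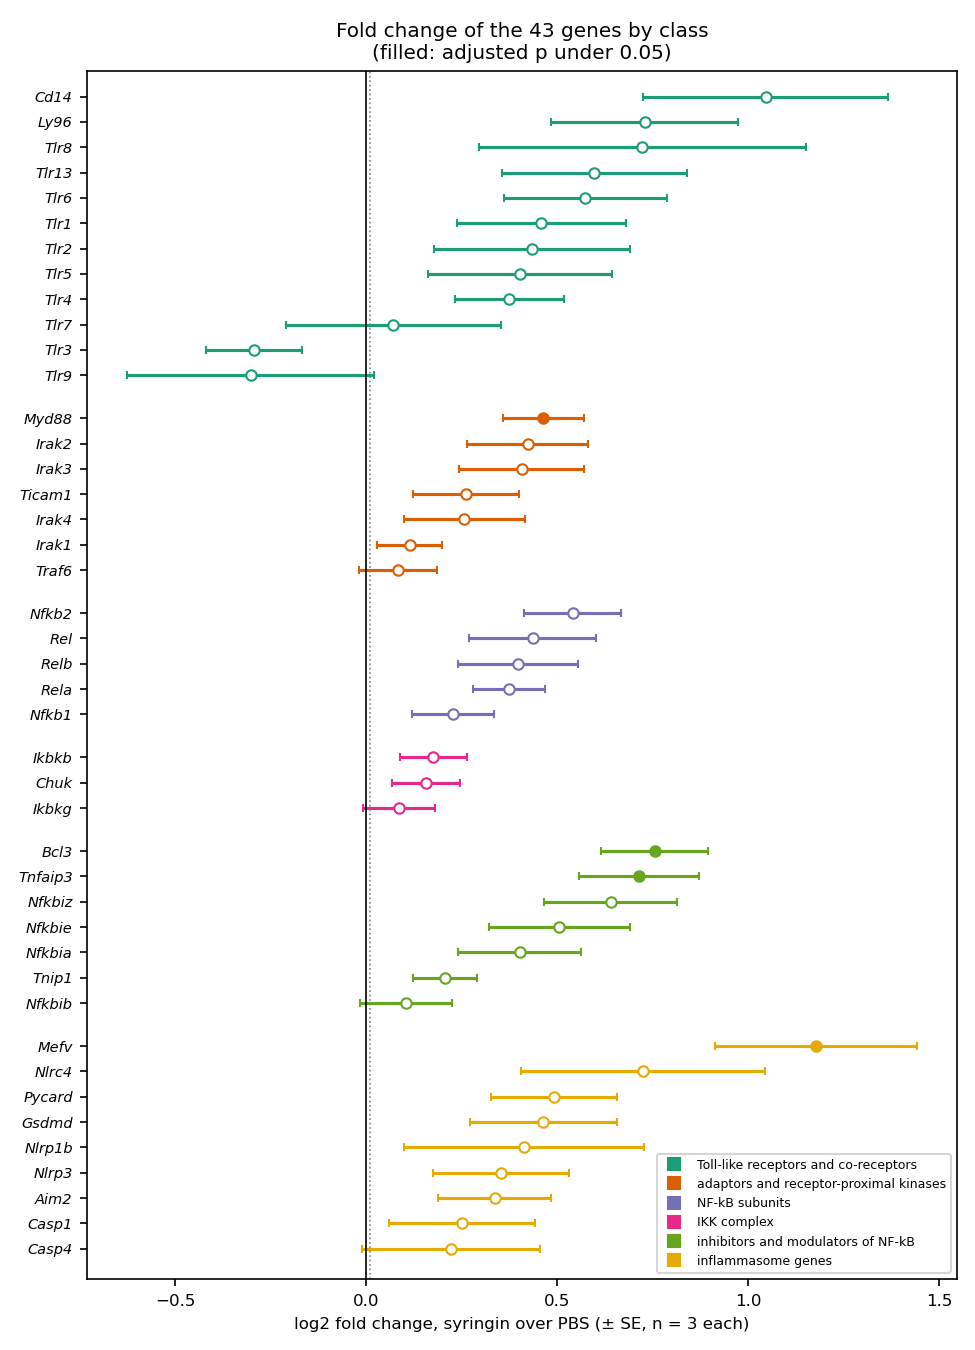
Log2 fold change, syringin over PBS, with its standard error for each of the 43 genes, in 6 classes, from edgeR on 3 libraries per group. Filled points passed an adjusted p of 0.05 (Bcl3, Tnfaip3, Mefv and Myd88), the solid line marks 0 and the dotted line the median of all genes, and only Tlr3 and Tlr9 lie below 0.

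Toll-like receptors and their co-receptors had a median log2 fold change of 0.45 over 12 genes, 10 of them positive. None was called in the edgeR fit of all 6 libraries with treatment as the only term, where 6 had an unadjusted p under 0.05, or by limma. DESeq2 called Cd14 and Ly96, and edgeR called Cd14 with the replicate number as a block and Tlr2 without syringin library 1. Cd14, the co-receptor that hands lipopolysaccharide to the Tlr4 complex, had the largest value of the class. It was at 59.8, 50.2 and 125 CPM in syringin libraries 1, 2 and 3, against 35.1, 35.2 and 43.7 CPM in the PBS libraries. All syringin libraries were above all PBS libraries, and syringin library 3 stood far above the other two. Its log2 fold change was 1.05 ± 0.32 (adjusted p = 0.105, edgeR) and 0.53 without syringin library 3. Ly96, whose product binds lipopolysaccharide within the Tlr4 complex, had 2.19, 3.32 and 2.998 CPM in syringin libraries, against 1.87, 1.66 and 1.60 CPM in PBS libraries. These low values did not overlap between the groups, and the log2 fold change was 0.73 ± 0.25 (adjusted p = 0.125, edgeR).

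Tlr4 itself, the lipopolysaccharide receptor, had 22.2, 26.5 and 18.7 CPM in syringin libraries, against 17.8, 16.5 and 17.7 CPM in PBS libraries. The groups did not overlap, with syringin library 3 close to the PBS libraries, and the log2 fold change was 0.37 ± 0.14 (adjusted p = 0.166, edgeR). A same-strand gene model, Gm57137, overlaps Tlr4 and held 2378 counts against the 8431 of Tlr4, so reads may be shared. The receptors of bacterial lipopeptides, Tlr2 and its partners Tlr1 and Tlr6, had log2 fold changes of 0.43 ± 0.26, 0.46 ± 0.22 and 0.57 ± 0.21, with adjusted p = 0.36, 0.26 and 0.157 in edgeR. Tlr6 had 8.002, 9.58 and 6.75 CPM in syringin libraries, against 6.42, 5.65 and 4.28 CPM in PBS libraries, and Tlr1 had 12.03, 19.98 and 11.3 CPM in syringin libraries, against 10.3, 10.6 and 10.7 CPM in PBS libraries. Neither gene had overlapping groups, and syringin library 2 was the highest for both. Tlr2 was at 31.7, 56.7 and 70.4 CPM in syringin libraries, against 35.2, 38.7 and 43.6 CPM in PBS libraries. Syringin library 1 lay below all PBS libraries and the other two lay above them. Without syringin library 1 the log2 fold change of Tlr2 was 0.69 (adjusted p = 0.0242, edgeR). Tlr5, the flagellin receptor, was the receptor with the lowest level, at 0.672 FPKM, and had 3.24, 5.29 and 4.58 CPM in syringin libraries, against 2.99, 3.08 and 3.85 CPM in PBS libraries, which overlap (0.40 ± 0.24).

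Receptors of nucleic acids, which act in endosomes, did not share 1 direction. Tlr3, the sensor of double-stranded RNA, had 23.3, 30.8 and 24.3 CPM in syringin libraries, against 33.5, 31.2 and 31.5 CPM in PBS libraries. Every syringin library was below every PBS library, though syringin library 2 was close to them, and the log2 fold change of -0.29 ± 0.13 did not pass (adjusted p = 0.205, edgeR). Tlr9, the sensor of unmethylated CpG DNA, had 4.97, 6.86 and 2.56 CPM in syringin libraries, against 5.84, 5.93 and 5.98 CPM in PBS libraries. The PBS libraries were nearly equal, while syringin library 2 lay above and syringin libraries 1 and 3 below them (-0.30 ± 0.32, adjusted p = 0.632, edgeR). Tlr7, a sensor of single-stranded RNA, had 40.8, 69.1 and 30.6 CPM in syringin libraries, against 54.5, 39.5 and 39.9 CPM in PBS libraries. Its syringin libraries lay on both sides of the PBS libraries, and the log2 fold change was 0.07 ± 0.28 with all libraries and -0.32 without syringin library 2.

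The related Tlr8 had 10.04, 27.3 and 7.80 CPM in syringin libraries, against 9.75, 8.09 and 9.51 CPM in PBS libraries. Syringin library 2 stood apart from the other 5 libraries, and the log2 fold change was 0.72 ± 0.43 with it and -0.03 without it. Tlr13, a sensor of bacterial ribosomal RNA found in mice, was the most abundant Toll-like receptor at 17.8 FPKM. It had 92.5, 141 and 67.9 CPM in syringin libraries, against 75.9, 61.99 and 61.5 CPM in PBS libraries. Syringin libraries 1 and 2 lay above all PBS libraries and syringin library 3 lay among them (0.60 ± 0.24, adjusted p = 0.187, edgeR).

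Among the adaptors and receptor-proximal kinases 1 of 7 genes rose, and all 7 had positive fold changes, with a median of 0.26. Myd88, the adaptor shared by nearly all Toll-like receptors and the interleukin-1 receptor, had 32.9, 39.6 and 35.2 CPM in syringin libraries, against 25.1, 27.9 and 25.1 CPM in PBS libraries. The lowest syringin library was above the highest PBS library by more than the PBS libraries differed among themselves. Mean levels were 35.9 ± 3.40 CPM in syringin libraries and 26.01 ± 1.62 CPM in PBS libraries (SD, n = 3 each), and the log2 fold change was 0.46 ± 0.11 (adjusted p = 0.0493, edgeR). That value is at the edge of the threshold: the adjusted p was 0.0543 without composition factors, 0.053 without the filter, 0.0502 with a correction for transcript length, 0.0552 in limma on log2(FPKM + 0.1) and 0.110 to 0.219 without any single library other than syringin library 1. Acaa1a, an enzyme gene of fatty acid oxidation on the other strand, overlaps Myd88 and held 32651 counts against 13065, and its log2 fold change was -0.03 ± 0.14.

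Irak2, a kinase that sustains signalling downstream of Myd88, had 32.2, 50.2 and 39.6 CPM in syringin libraries, against 28.6, 30.9 and 31.6 CPM in PBS libraries. The groups did not overlap, syringin library 1 being close to the PBS libraries (0.42 ± 0.16, adjusted p = 0.158, edgeR), and the gene was called without syringin library 1 (0.56, adjusted p = 0.0395). Irak3, which restrains the pathway in macrophages, had a log2 fold change of 0.41 ± 0.16, and its groups did not overlap either. Tmbim4, on the other strand, overlaps Irak3 and held 16777 counts against 4738, with a log2 fold change of 0.06 ± 0.10. Irak1 was the most abundant gene of the class at 17.8 FPKM and had 98.9, 97.8 and 87.7 CPM in syringin libraries, against 91.6, 86.4 and 84.9 CPM in PBS libraries. Its groups overlapped and the log2 fold change was 0.11 ± 0.09. Ticam1, the adaptor of Tlr3 and of Tlr4 in endosomes, the kinase gene Irak4 and the ubiquitin ligase gene Traf6 had values of 0.26 ± 0.14, 0.26 ± 0.16 and 0.08 ± 0.10, all with overlapping groups.

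**Figure D2:**
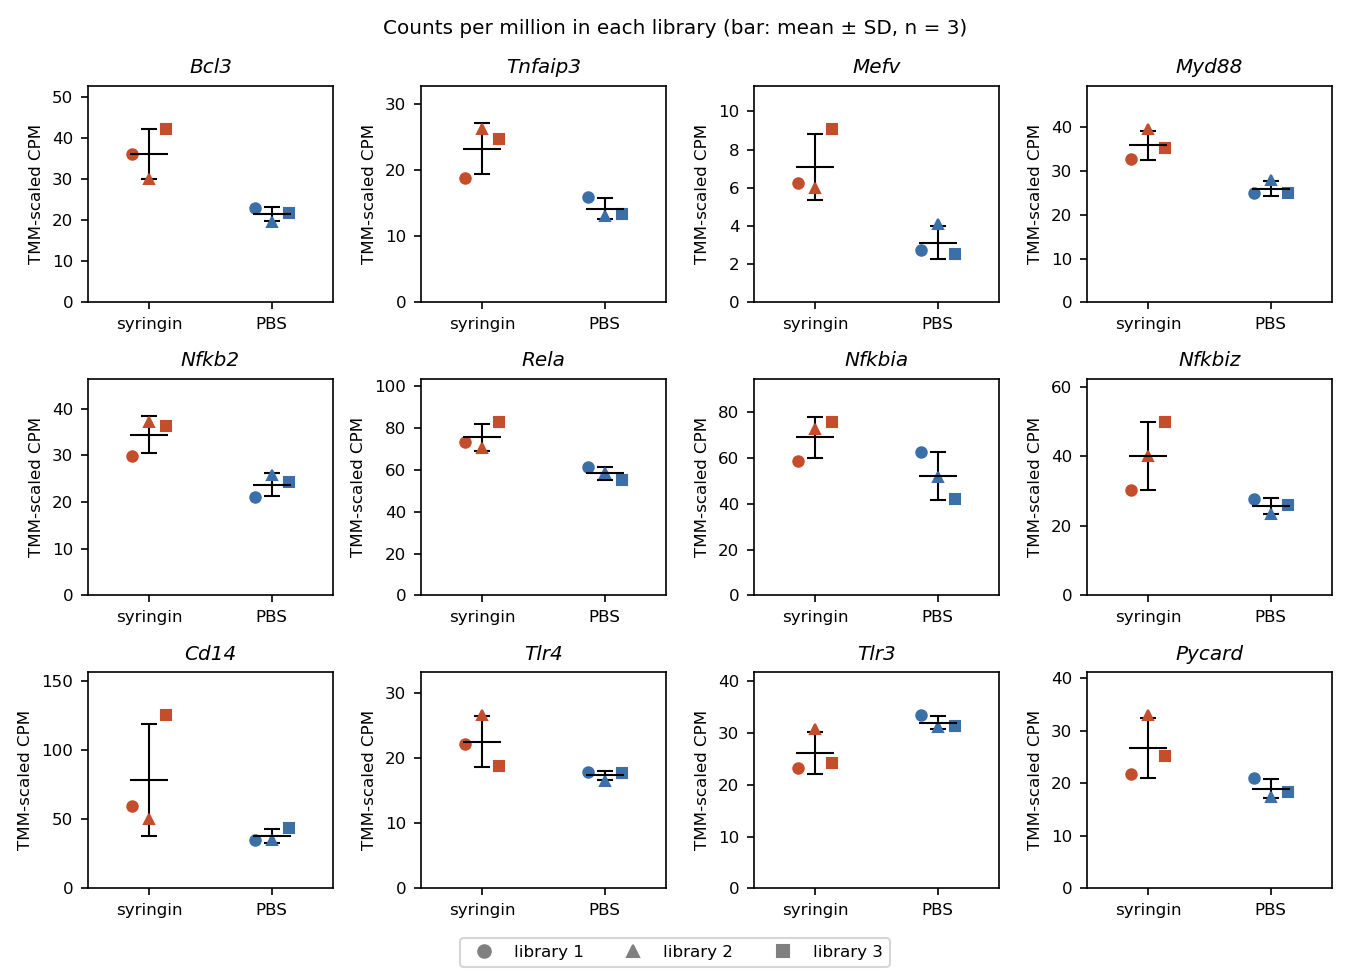
TMM-scaled CPM of 12 genes in each library, syringin left and PBS right, with the mean ± SD of 3 libraries as bars and the library number as the marker shape. Bcl3, Tnfaip3, Mefv and Myd88 rose, Cd14 reached 125 CPM in syringin library 3 against 59.8 and 50.2 CPM in the other syringin libraries, and Tlr3 was lower in every syringin library than in any PBS library.

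All 5 genes of NF-kB subunits had positive fold changes between 0.23 and 0.54. None was called in the edgeR fit of all 6 libraries with treatment as the only term, where 4 had an unadjusted p under 0.05, or by limma, while DESeq2 and edgeR with the sensory ganglion covariate called Nfkb2 and Rela. Nfkb2, the precursor of the non-canonical subunit, had 29.9, 37.1 and 36.3 CPM in syringin libraries, against 20.99, 25.8 and 24.2 CPM in PBS libraries. Every syringin library exceeded every PBS library, and the log2 fold change of 0.54 ± 0.13 just missed the threshold (adjusted p = 0.0519, edgeR). It passed under 6 of 10 other settings on 6 libraries, among them DESeq2 (adjusted p = 0.00339) and edgeR with counts divided by 4 (adjusted p = 0.0438), and without syringin library 1 (adjusted p = 0.0231, edgeR). Psd, a synaptic gene on the other strand that overlaps Nfkb2, held 16104 counts against 12233 and had a log2 fold change of -0.57 ± 0.18. Rela, the main activating subunit and the most abundant of the 5 at 20.04 FPKM, had 73.5, 70.5 and 82.8 CPM in syringin libraries, against 61.5, 58.4 and 55.1 CPM in PBS libraries. The ranges did not touch (0.37 ± 0.09, adjusted p = 0.0633, edgeR).

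Nfkb1, the precursor of the canonical partner of Rela, had 62.3, 76.3 and 74.9 CPM in syringin libraries, against 57.03, 59.7 and 65.7 CPM in PBS libraries. Syringin library 1 lay within the PBS range, and the log2 fold change was 0.23 ± 0.11 (adjusted p = 0.25, edgeR). Rel, a subunit used mainly by blood cells, had 16.4, 24.8 and 18.2 CPM in syringin libraries, against 14.5, 15.4 and 14.04 CPM in PBS libraries (0.44 ± 0.17, adjusted p = 0.165, edgeR). Relb, the partner of the Nfkb2 product, averaged 14.99 ± 1.07 CPM in syringin libraries and 11.4 ± 1.93 CPM in PBS libraries (SD, n = 3 each), with a log2 fold change of 0.40 ± 0.16 (adjusted p = 0.176, edgeR). Neither gene had overlapping groups, but syringin library 2 was close to PBS library 2 for Relb.

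The 3 genes of the IKK complex, which phosphorylates the inhibitors of NF-kB, had the smallest median of the 6 classes, at 0.16. None was called under any setting of edgeR, DESeq2 or limma. In the edgeR fit of all 6 libraries with treatment only, by DESeq2 or by limma, none had an unadjusted p under 0.05. Such a p was given by edgeR to 2 of them with the transcript length correction and to 1 without syringin library 1. Ikbkb, the kinase of the canonical pathway, had 65.9, 74.9 and 76.2 CPM in syringin libraries, against 62.3, 65.1 and 64.8 CPM in PBS libraries. The groups were separate by a narrow margin (0.17 ± 0.09, adjusted p = 0.278, edgeR). Chuk, the second kinase, had 64.3, 63.5 and 68.8 CPM in syringin libraries, against 56.6, 56.3 and 63.6 CPM in PBS libraries, and syringin library 2 lay just below PBS library 3 (0.16 ± 0.09). The regulatory subunit gene Ikbkg had a log2 fold change of 0.09 ± 0.09. G6pdx, on the other strand, overlaps Ikbkg and held 57162 counts against 23957, with a log2 fold change of 0.20 ± 0.09.

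Inhibitors and modulators of NF-kB held 2 of the 4 risen genes and had the largest class median, at 0.51 over 7 genes, all positive. Bcl3, an atypical inhibitor protein that works in the nucleus with NF-kB dimers, had 36.2, 30.1 and 42.1 CPM in syringin libraries, against 22.96, 19.6 and 21.7 CPM in PBS libraries. The lowest syringin library was well above the highest PBS library. Its mean was 36.1 ± 6.01 CPM in syringin libraries and 21.4 ± 1.72 CPM in PBS libraries (SD, n = 3 each), and the log2 fold change was 0.75 ± 0.14 (adjusted p = 0.0287, edgeR). Bcl3 was called under all 10 other settings on 6 libraries, in edgeR, DESeq2 and limma, and lost its call without syringin library 3 or without PBS library 1, 2 or 3 (adjusted p = 0.0702 to 0.155). Tnfaip3, a ubiquitin-editing enzyme that shuts off signalling to NF-kB, had 18.9, 26.2 and 24.8 CPM in syringin libraries, against 16.01, 13.1 and 13.4 CPM in PBS libraries. Syringin library 1 lay between the other syringin libraries and the PBS libraries. The mean was 23.3 ± 3.87 CPM in syringin libraries and 14.2 ± 1.58 CPM in PBS libraries (SD, n = 3 each), and the log2 fold change was 0.71 ± 0.16 (adjusted p = 0.0436, edgeR), with adjusted p from 0.0758 to 0.202 without any single library other than syringin library 1 and of 0.0681 in limma on log2(FPKM + 0.1).

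Nfkbia, the classical inhibitor that holds NF-kB in the cytoplasm, was the most abundant of the 43 genes at 34.6 FPKM. It had 58.7, 72.7 and 75.7 CPM in syringin libraries, against 62.9, 51.8 and 42.1 CPM in PBS libraries. Syringin library 1 lay below PBS library 1, so the groups overlapped, and the log2 fold change was 0.40 ± 0.16 (adjusted p = 0.181, edgeR). Nfkbiz, a nuclear inhibitor protein that is needed for a set of secondary target genes such as Il6, had 30.4, 39.96 and 49.7 CPM in syringin libraries, against 27.6, 23.4 and 26.1 CPM in PBS libraries. Its groups did not overlap, syringin library 1 being nearest to PBS (0.64 ± 0.17, adjusted p = 0.078, edgeR), and without that library the value was 0.80 (adjusted p = 0.0163, edgeR). With all libraries DESeq2 called Nfkbiz (adjusted p = 0.0108). Nfkbie, another cytoplasmic inhibitor, and Tnip1, a partner of Tnfaip3, had log2 fold changes of 0.51 ± 0.18 and 0.21 ± 0.08 with separate groups. Nfkbie was at 7.68, 8.50 and 11.2 CPM in syringin libraries, against 5.84, 6.84 and 6.58 CPM in PBS libraries, and Tnip1 at 41.1, 41.7 and 38.3 CPM in syringin libraries, against 35.2, 35.3 and 34.4 CPM in PBS libraries, a narrow but separate pair of ranges. Nfkbib was at 0.10 ± 0.12 with overlapping groups.

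Inflammasome genes held 1 risen gene of 9, and all 9 had positive fold changes, with a median of 0.41. Mefv encodes pyrin, an inflammasome sensor found mainly in granulocytes and monocytes. It had 6.24, 5.98 and 9.07 CPM in syringin libraries, against 2.75, 4.13 and 2.52 CPM in PBS libraries. The groups did not overlap, and syringin library 3 was the highest. Mefv averaged 7.10 ± 1.71 CPM in syringin libraries and 3.14 ± 0.870 CPM in PBS libraries (SD, n = 3 each), and the log2 fold change of 1.18 ± 0.26 was the largest of the 43 (adjusted p = 0.0469, edgeR). It had an adjusted p of 0.0584 in limma on log2(FPKM + 0.1) and of 0.072 to 0.207 without any single library other than syringin library 1. Beside it, 12 neutrophil markers summed to 174, 149 and 68.7 CPM in syringin libraries 1, 2 and 3 and to 114, 169.9 and 109 CPM in PBS libraries. The 15 markers of infiltrating monocytes and macrophages summed to 3854, 7416 and 4734 CPM in syringin libraries and to 2722, 2756 and 3302 CPM in PBS libraries, higher in every syringin library. The part of either cell type in the level of Mefv was not tested.

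Pycard, the common inflammasome adaptor, had 21.9, 32.95 and 25.2 CPM in syringin libraries, against 20.97, 17.5 and 18.4 CPM in PBS libraries. The groups were separate only by the small gap between syringin library 1 and PBS library 1 (0.49 ± 0.16, adjusted p = 0.125, edgeR), and DESeq2 called Pycard (adjusted p = 0.0486). Nlrp3, the sensor of membrane damage and potassium loss, had 8.18, 9.71 and 12.01 CPM in syringin libraries, against 7.71, 7.22 and 8.47 CPM in PBS libraries. Syringin library 1 lay within the PBS range (0.35 ± 0.18, adjusted p = 0.282, edgeR). Casp1, the protease that inflammasomes activate, had 10.9, 16.3 and 12.2 CPM in syringin libraries, against 12.98, 9.73 and 10.4 CPM in PBS libraries, with overlapping groups and a log2 fold change of 0.25 ± 0.19.

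Gsdmd, the pore protein of pyroptosis and the most abundant gene of the class at 7.42 FPKM, had 16.4, 27.5 and 23.2 CPM in syringin libraries, against 14.3, 17.6 and 16.6 CPM in PBS libraries. Syringin library 1 again lay within the PBS range (0.46 ± 0.19, adjusted p = 0.195, edgeR), and without it the value was 0.64 (adjusted p = 0.0376, edgeR). Aim2, the sensor of cytosolic DNA, had 17.2, 23.9 and 17.97 CPM in syringin libraries, against 15.9, 15.7 and 15.2 CPM in PBS libraries, with separate groups (0.34 ± 0.15, adjusted p = 0.22, edgeR). It overlaps the neuronal adhesion gene Cadm3 on the other strand, which held 65452 counts against 7440 and had a log2 fold change of -0.76 ± 0.12. Casp4, the caspase that senses intracellular lipopolysaccharide, Nlrc4, which responds to flagellin together with NAIP proteins, and Nlrp1b had values of 0.22 ± 0.23, 0.72 ± 0.32 and 0.41 ± 0.31, all with overlapping groups. Nlrc4 was the least abundant of the 43 at 0.262 FPKM, with 1.12, 2.18 and 1.82 CPM in syringin libraries, against 0.927, 0.981 and 1.19 CPM in PBS libraries. Nlrp1b had 3.92, 9.26 and 4.89 CPM in syringin libraries, against 4.66, 4.16 and 4.73 CPM in PBS libraries, so that syringin library 2 alone stood high, and its log2 fold change was -0.04 without that library. Nlrp1b has close paralogues, between which the counting could split reads.

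**Figure D3:**
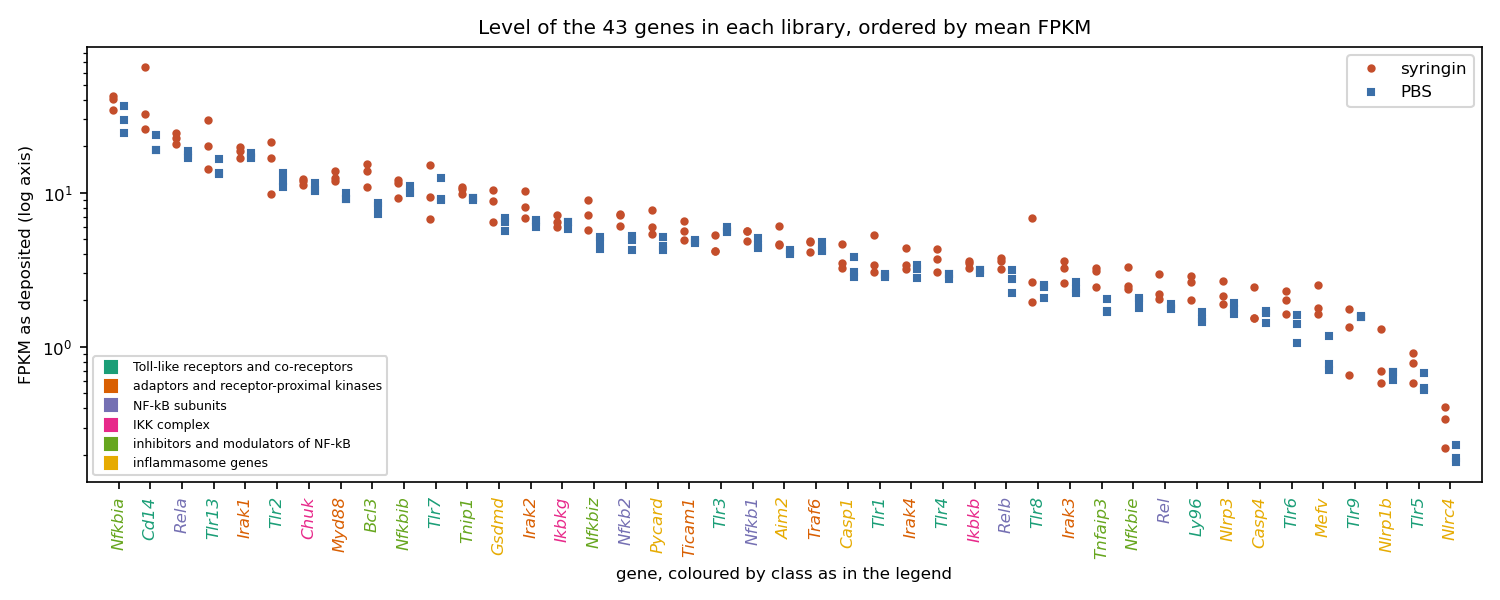
FPKM as deposited, on a log axis, of the 43 genes in each library, ordered by the mean of 6 libraries and coloured by class, syringin left of PBS at each gene. Nfkbia (34.6 FPKM) and Cd14 (30.8 FPKM) were highest and Nlrc4 (0.262 FPKM) lowest, and receptors are spread over the whole range.

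Levels per transcript length ordered the members differently from their fold changes. The 5 highest mean levels over 6 libraries were those of Nfkbia, Cd14, Rela, Tlr13 and Irak1, at 34.6, 30.8, 20.04, 17.8 and 17.8 FPKM. Cd14 averaged 41.3 ± 21.1 FPKM in syringin libraries and 20.4 ± 2.68 FPKM in PBS libraries, and Nfkbia averaged 39.1 ± 4.32 FPKM in syringin libraries and 30.1 ± 6.02 FPKM in PBS libraries (SD, n = 3 each). The levels of Cd14 and Nfkbia overlapped in syringin libraries, where Cd14 in library 3 was the highest value of any member, and were apart in PBS libraries, with Nfkbia the higher. Of the 4 risen genes, Myd88 and Bcl3 ranked 8 and 9 of 43 by level, and Tnfaip3 and Mefv ranked 32 and 39. Of the inflammasome sensors, Nlrp3, Mefv, Nlrp1b and Nlrc4 were at or below 2.01 FPKM and Aim2 was at 4.62 FPKM, beside 7.42, 5.51 and 3.53 FPKM for Gsdmd, Pycard and Casp1.

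Values of the syringin group were spread more widely than those of PBS in several classes. Among the 3 syringin libraries, library 2 was the highest for 28 of the 43 members and library 1 the lowest for 23. The mean of the receptor class, relative to all 6 libraries on the log2 scale, was -0.03, 0.53 and 0.01 in syringin libraries 1, 2 and 3 and -0.11, -0.22 and -0.16 in PBS libraries. In the inflammasome class the corresponding means were -0.09, 0.52 and 0.25 in syringin libraries and -0.25, -0.22 and -0.22 in PBS libraries. The inhibitor class followed another order, 0.10, 0.20 and 0.40 in syringin libraries and -0.14, -0.28 and -0.28 in PBS libraries, with library 3 highest.

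Summed markers of all myeloid cells were, like the receptor and inflammasome classes, highest in syringin library 2, while microglia and neutrophil markers were mostly not higher with syringin. The 12 genes shared by myeloid cells summed to 2517, 7172 and 4272 CPM in syringin libraries 1, 2 and 3 and to 2348, 2697 and 2828 CPM in PBS libraries, with 11 of 12 fold changes positive. Of the 7172 CPM in syringin library 2, Lyz2 and Ctss held 3673 and 1381 CPM, and both genes had overlapping groups. Csf1r went the other way, with every syringin library below every PBS library (-0.29 ± 0.15, adjusted p = 0.299, edgeR). None of the 12 was called in this edgeR fit, where 6 had an unadjusted p under 0.05, or by limma, while DESeq2 called 5 of them higher, and edgeR called 6 with the sensory ganglion covariate, 7 without syringin library 1 and Spi1 without the filter. The 15 markers of infiltrating monocytes and macrophages summed to 3854 to 7416 CPM in syringin libraries and 2722 to 3302 CPM in PBS libraries, and 6 of them rose (Arg1, Thbs1, F10, Clec4d, S100a4 and Cd44). The other 9 did not pass in this edgeR fit, among them Ccr2, Ly6c2, Chil3, Plac8 and Ms4a4c, whose groups overlapped. DESeq2 called the same 6, while limma called neither Arg1 nor Thbs1. Arg1 also lost its call with the transcript length correction, and Thbs1 without the filter and with the replicate number as a block, which added Chil3. Of the 7416 CPM in syringin library 2, Gpnmb, Fn1 and Thbs1 held 2702, 1803 and 1754 CPM. Of 11 microglia markers tested none was called in this edgeR fit or by limma, though edgeR gave 4 of them an unadjusted p under 0.05, and DESeq2 called 3 lower (P2ry12, Gpr34 and Slc2a5). Negative fold changes were found for 9 of the 11, with sums of 798 to 1351 CPM in syringin libraries and 1045 to 1242 CPM in PBS libraries. Among 12 neutrophil markers, Mmp8 rose and Mpo fell in this edgeR fit, 7 fold changes were negative and the median was -0.48. DESeq2 called Ngp, Ltf and Mpo lower and Mmp8 higher. The same calls came from edgeR with the replicate number as a block and with the sensory ganglion covariate, while limma called none. The granulocyte marker Ly6g was at 0 in PBS library 1 and at or below 0.337 CPM in all others. Neuronal markers were lower, 10 of 16 having fallen, with sums of 2362 to 3477 CPM in syringin libraries and 4496 to 5684 CPM in PBS libraries, and 4 of 10 astrocyte markers fell. Without syringin library 3 and without PBS library 1, 2 and 3 in turn, edgeR called 3, 2, 5 and 0 neuronal markers, 2, 1, 1 and 0 astrocyte markers and 3, 3, 2 and 0 markers of infiltrating monocytes and macrophages. Without PBS library 3, 13 neuronal, 7 astrocyte and 8 monocyte and macrophage markers had an unadjusted p under 0.05. Of 8 endothelial markers Pecam1 rose, and T and B cell markers summed to 6.02 to 11.1 CPM in syringin libraries and 3.70 to 6.71 CPM in PBS libraries. These 10 T and B cell markers were split, with 6 positive and 4 negative log2 fold changes between -1.79 and 1.54, and none was called in this edgeR fit. The part of these cell types in the values above was not tested.

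**Figure D4:**
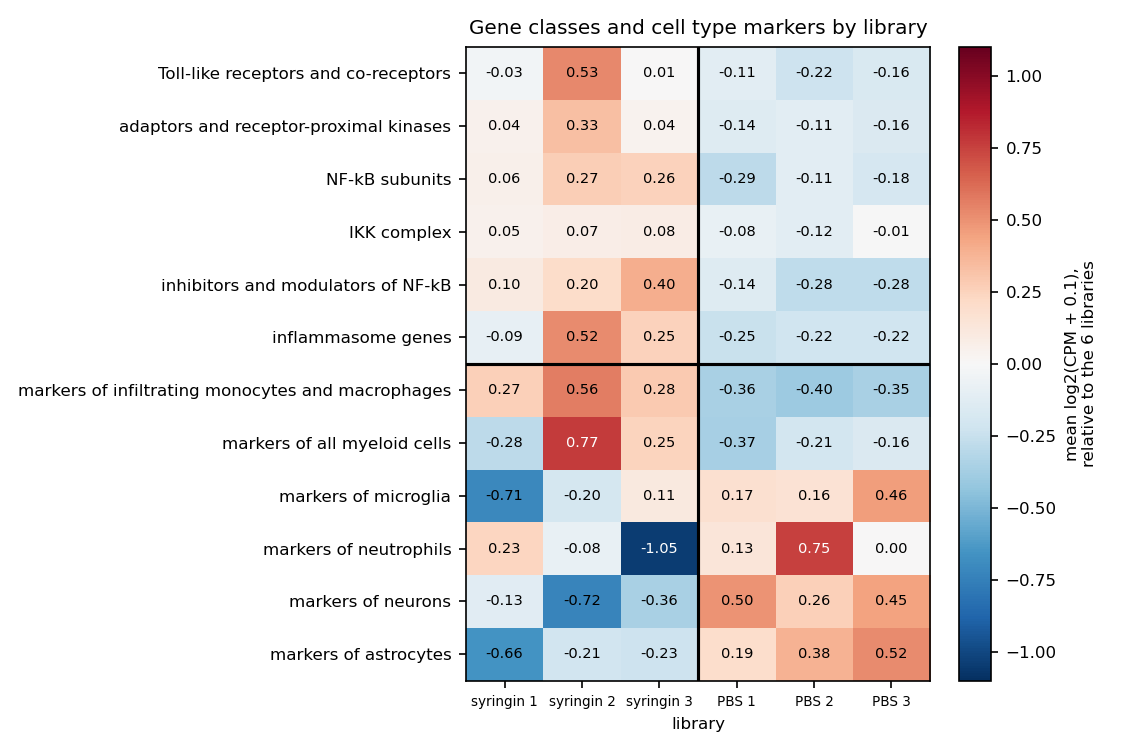
Mean log2(CPM + 0.1) of each gene class, above the line, and of marker lists of 6 cell types, below it, in each library relative to the mean of the 6 libraries, with syringin libraries left. The receptor class (0.53), the inflammasome class (0.52) and the markers of all myeloid cells (0.77) were highest in syringin library 2, and the inhibitor class (0.40) was highest in syringin library 3.

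Other genes of the pathway gave the setting. Of 24 further genes of Toll-like receptor signalling, 23 were tested, 1 rose and none fell (median 0.10). The risen gene was Irf5, a transcription factor activated downstream of Myd88, at 33.8, 45.3 and 43.8 CPM in syringin libraries, against 28.03, 27.6 and 27.5 CPM in PBS libraries. Its PBS libraries were nearly equal and all syringin libraries were above them (0.56 ± 0.12, adjusted p = 0.0438, edgeR). DESeq2 called Irf5, Hmgb1 and Pik3ap1 higher, edgeR with the sensory ganglion covariate called Ikbke, Irf5, Btk and Pik3ap1 higher, and limma called none of this list. In edgeR with treatment only, Pik3ap1, an adaptor that links Toll-like receptors to PI3-kinase, was at 0.63 ± 0.15 (adjusted p = 0.0601). No gene of 20 further regulators of NF-kB was called in the same fit, where 6 had an unadjusted p under 0.05 (median 0.26), or by limma. DESeq2 called 5 higher and Cyld lower, and edgeR called Ripk1 and Nod2 with the sensory ganglion covariate and with the transcript length correction, and Nod2 with counts divided by 4. Nod2, a sensor of bacterial peptidoglycan, had 3.40, 4.21 and 3.25 CPM in syringin libraries, against 2.01, 1.87 and 1.86 CPM in PBS libraries, and just missed the threshold (0.92 ± 0.21, adjusted p = 0.0502, edgeR). Cyld, a deubiquitinase that restrains NF-kB, went the other way at -0.29 ± 0.08 (adjusted p = 0.078, edgeR), with every syringin library below every PBS library.

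Known target genes of NF-kB had the highest median of the other pathway lists, at 0.59 over 23 tested genes of 24, with 4 risen and 1 fallen. The chemokine genes Ccl2, Ccl3 and Cxcl1, which attract monocytes and neutrophils, rose by 0.88 ± 0.19, 0.79 ± 0.14 and 1.17 ± 0.22 on the log2 scale (adjusted p = 0.0442, 0.0272 and 0.0286, edgeR), and the macrophage growth factor gene Csf1 rose by 0.39 ± 0.08 (adjusted p = 0.04). Cxcl1 was at 4.32, 5.43 and 4.03 CPM in syringin libraries, against 2.03, 2.27 and 1.83 CPM in PBS libraries. Each syringin library was far above each PBS library. Sod2, the mitochondrial superoxide dismutase that many cell types express, fell, at 83.2, 74.3 and 81.8 CPM in syringin libraries, against 108, 98.3 and 107 CPM in PBS libraries (-0.39 ± 0.09, adjusted p = 0.0444, edgeR). Sod2 was not called with library totals only, with the transcript length correction or by limma, Csf1 was not called with library totals only or by limma, and neither Ccl2 nor Irf5 was called by limma.

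The cytokine genes Il1b, Tnf, Il6 and Il18 did not pass in this fit, while DESeq2, which called 9 of the target genes higher and 1 lower, called Tnf. Tnf was also called with the sensory ganglion covariate. Il1b, the precursor that caspase-1 cleaves, had 7.14, 5.64 and 13.4 CPM in syringin libraries, against 3.64, 5.54 and 5.76 CPM in PBS libraries. Syringin library 3 was high and syringin library 2 lay within the PBS range (0.81 ± 0.34, adjusted p = 0.2, edgeR). Tnf had 3.03, 1.90 and 3.75 CPM in syringin libraries, against 1.64, 1.17 and 1.14 CPM in PBS libraries, with separate groups at a low level (1.13 ± 0.32, adjusted p = 0.084, edgeR). Il6 was at 1.12 ± 0.43 (adjusted p = 0.167, edgeR) with overlapping groups. Il18, the other main substrate of caspase-1, had 11.5, 10.2 and 13.9 CPM in syringin libraries, against 13.3, 11.6 and 12.1 CPM in PBS libraries. Its 6 libraries were close together, and the log2 fold change was -0.05 ± 0.15.

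Of 26 further genes of inflammasomes and pyroptosis, 2 rose and none fell in the edgeR fit with treatment only (median 0.36). DESeq2 called 6 of them higher (Casp8, Ninj1, Pstpip1, Ripk3, Mlkl and Card19), and limma called Pstpip1 and Card19. With the replicate number as a block edgeR called 6 higher, and with the sensory ganglion covariate 7. Pstpip1, a cytoskeletal adaptor that binds the pyrin protein encoded by Mefv, had 29.1, 33.6 and 36.9 CPM in syringin libraries, against 22.3, 21.2 and 19.6 CPM in PBS libraries. The groups were far apart (0.66 ± 0.12, adjusted p = 0.0267, edgeR). Card19 had 38.6, 40.1 and 49.7 CPM in syringin libraries, against 28.1, 27.2 and 24.5 CPM in PBS libraries (0.69 ± 0.12, adjusted p = 0.0262, edgeR). Without syringin library 3 or any 1 PBS library, edgeR called no gene of these 4 pathway lists, while 10, 11, 10 and 12 NF-kB target genes had an unadjusted p under 0.05 without syringin library 3 and without PBS library 1, 2 and 3.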

How the data were processed

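TRIzol was used to extract cord RNA and stranded TruSeq libraries were made from its polyadenylated part, per the labels' protocols. The submitters' processing notes name HISAT2, StringTie and the builds GRCm38 and mm10. The table the authors deposited covers 37475 genes and holds, for each library, estimated counts, all of them whole numbers that needed no rounding. It also holds FPKM, which the authors scaled to transcript length and library size. For strand use in counting, the sources used here say nothing. The gene coordinates of the table are not printed, since only 717 of 34804 shared gene IDs had the same start in a GRCm38 annotation.

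Counts were scaled by TMM, and 22114 genes passed filterByExpr at a minimum count of 10 and a minimum total of 15. The robust quasi-likelihood test of edgeR 4.0.16 (R 4.3.3) compared the treatments with no covariate, after the procedure was tested on simulated counts. Calls are at a two-sided Benjamini-Hochberg adjusted p of 0.05 over all genes. A standard error is the size of the log2 fold change divided by the root of its F statistic. Other settings used DESeq2 1.42.0, limma 3.58.1 on log2(FPKM + 0.1) and log2(FPKM + 1), RLE or no composition factors, no filter, counts divided by 4, a transcript length correction, the mean of the sensory ganglion list as a covariate, the replicate number as a block, and each library left out. DESeq2 without PBS library 3 was chosen after seeing the data.

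The members and gene lists were chosen with earlier results of these data known. Named in full were called members, the 2 smallest p-values and the highest FPKM of each class, and Tlr4, Myd88, Rela, Nfkb1, Nfkbia, Nlrp3, Casp1, Pycard and Gsdmd. From each other pathway list the called genes and the 2 smallest p-values were named, with Il1b, Il18, Tnf and Il6. Members given beyond this rule were chosen after their values were seen. Pairs of replicate libraries gave chi-square values of 31.4 to 147 per degree of freedom, so none was a duplicate. Fcrls of the microglia list and 2 pathway genes, Tlr11 and Il12b, were not tested.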

Additional observations from a re-analysis of the deposited data

How the results depend on the processing

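With all 6 libraries, edgeR called 1108 genes, among them 4 of the 43 described here. DESeq2 called 3191 genes and 10 members, limma on log2(FPKM + 0.1) 693 genes and 1 member, limma on log2(FPKM + 1) 690 genes and 1 member, and the sensory ganglion covariate 2584 genes and 7 members. The counts of genes and members moved by less than 1.5 times with RLE factors, library totals only, no filter, counts divided by 4 and the transcript length correction, which called 3 to 5 members each. Leaving out 1 library gave 0 to 1944 genes and 0 to 9 members. The labels give same-numbered libraries a shared number and no other link. Their deviations from the group means correlated at 0.292, 0.123 and 0.052. Syringin libraries 1 and 3 correlated best with the same-numbered PBS library, and syringin library 2 with PBS library 3, at 0.135. These values cannot settle whether the libraries were paired. With the replicate number as a block, 2557 genes and 6 members were called, with Cd14 and Nfkb2 added. The block also gave calls for the microglia markers P2ry12, Siglech, Gpr34 and Slc2a5 (lower), for the myeloid markers Cd68, Tyrobp and Spi1 (higher) and for Nfkbid, Nod2 and Il6 (higher). Without syringin library 3, Siglech was called lower.

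No member was called lower under any of these settings. Uncalled fold changes turned negative for Tlr7 with the replicate block (-0.000776), in limma (-0.020 and -0.014), in DESeq2 without PBS library 3, a fit chosen after seeing the data (-0.0096), and without syringin library 2 or PBS library 2 or 3 (-0.32 to 0.30 over all single libraries left out). Without syringin library 2 alone, 3 others turned negative, with ranges over single libraries left out of -0.030 to 1.03 for Tlr8, -0.036 to 0.64 for Nlrp1b and -0.059 to 0.35 for Casp4. The causes were not tested. With 3 libraries a group and a common biological coefficient of variation of 24.9%, the smallest log2 fold change called among the members in the edgeR fit with treatment only was 0.46 (Myd88).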
